A study of Mus musculus with 4 samples.

Results

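Interferon-stimulated genes are the antiviral genes that cells switch on when interferons bind their receptors. A set of 35 such mouse genes was examined in natural killer (NK) cells, and the accessible chromatin regions counted as theirs were those lying within, or closest to, a protein-coding gene of the set. This gave 121 regions of the 91266 in the deposited list, assigned to 31 genes. Of the other 4 genes, Mx1 and Mx2 could receive no region because the annotation classes both as transcribed pseudogenes, and Ifit1 and Oasl1 are protein-coding genes with 0 regions assigned. A region lay at the start of 27 of the 29 genes whose start could be placed, and 5 of the 121 regions (4.13%) were in the authors' lists of regions that differed between doses, where 5.61% of all regions were.

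The regions came from ATAC-seq, in which a transposase cuts open chromatin, on cultured splenic NK cells of wild-type C57BL/6 mice. Cells were kept for 72 hours in a high or a low dose of interleukin-15 (IL-15), with 2 samples per dose and 4 in all. The labels give no concentration, and both groups received the cytokine, so there is no group without it. The deposited tables give positions for the series as a whole: all accessible regions, and the authors' lists of 3845 up and 1275 down regions. They hold no value per sample, so depth is unknown, no replicate error can be given, and whether more cells opened a region or each cell opened it further cannot be told apart. Which dose was the reference is not stated in the sources used here, and the lists keep their deposited names.

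Type I interferons signal through the receptor-bound kinases JAK1 and TYK2 to transcription factors that bind the interferon-stimulated response element (ISRE). Interferon gamma, which NK cells secrete, acts through the gamma-activated sequence (GAS), an element of the same kind as that bound by STAT5, the main STAT factor downstream of IL-15. The encoded proteins sense foreign RNA, degrade it, block viral entry and budding, or attack the membranes around intracellular pathogens.

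Promoter sequences are shown first because the choice of regions did not use them. Promoters were taken from RefSeq on GRCm38.p6, from 250 bases before to 50 after each annotated start, and 29 of the 33 protein-coding genes of the set had an entry. The ISRE was searched on both strands as GAAA, any 2 bases and GAAA again (TTTC, any 2 bases and TTTC on the other strand), and overlapping matches were all counted. It was present in 18 of the 29 genes (62.1%, 95% Wilson interval 44 to 77.3%), against 689 of 17492 protein-coding genes with an entry (3.94%). At least 2 matches were found in 8 of the 29 (27.6%) and in 0.303% of all genes. A longer form, in which CT follows, was present in 11 of the 29 (37.9%) and in 0.366% of all genes. GAS, searched as TTC, any 3 bases and GAA, which reads the same on both strands, was present in 11 of the 29 (37.9%) and in 8.92% of all genes, and 7 genes held both elements. Genes of this set are known for carrying these elements, and a match is a description of letters, not evidence that a factor was bound.

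The 250 bases before the start are shown for the 4 genes that come first when promoters holding an ISRE and overlapping an accessible region are ordered by number of matches, with ties among the 6 genes with 2 matches broken by the order of the gene list. Bases are counted from the start, with -1 just before it. Each sequence is written 5′ to 3′ in the direction of the gene, with ISRE matches in capitals.
Isg15, minus strand, chr4:156200819-156201068: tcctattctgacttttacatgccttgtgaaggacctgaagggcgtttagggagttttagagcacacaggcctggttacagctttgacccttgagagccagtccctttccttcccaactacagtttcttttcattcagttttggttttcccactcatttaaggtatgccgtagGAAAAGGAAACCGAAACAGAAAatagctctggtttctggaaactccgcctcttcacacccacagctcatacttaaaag
Ifit1, plus strand, chr19:34640639-34640888: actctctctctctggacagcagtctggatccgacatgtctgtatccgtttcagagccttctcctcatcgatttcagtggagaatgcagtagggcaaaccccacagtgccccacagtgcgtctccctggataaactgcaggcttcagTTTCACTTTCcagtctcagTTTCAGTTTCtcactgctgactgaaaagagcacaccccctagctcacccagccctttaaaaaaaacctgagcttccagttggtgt
Ifit3, plus strand, chr19:34583279-34583528: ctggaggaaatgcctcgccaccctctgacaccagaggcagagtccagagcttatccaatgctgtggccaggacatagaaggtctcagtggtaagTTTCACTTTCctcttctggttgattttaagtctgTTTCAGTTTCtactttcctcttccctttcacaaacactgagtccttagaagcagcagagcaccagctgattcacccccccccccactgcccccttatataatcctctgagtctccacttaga
Oas1a, minus strand, chr5:120907526-120907775: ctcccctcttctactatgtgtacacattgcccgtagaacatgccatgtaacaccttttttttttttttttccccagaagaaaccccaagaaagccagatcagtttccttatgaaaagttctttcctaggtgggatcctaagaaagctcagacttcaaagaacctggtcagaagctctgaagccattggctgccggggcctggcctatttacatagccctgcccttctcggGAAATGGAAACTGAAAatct
Isg15, which encodes a ubiquitin-like modifier, held 3 matches that overlap into 1 stretch from -78 to -57. Oas1a held 2 overlapping matches from -20 to -5. The 2 matches of Ifit1 (-104 to -95 and -85 to -76) and of Ifit3 (-156 to -147 and -122 to -113) were separate and lay on the opposite strand. The promoter of Oasl2 is shown for contrast, chosen after its values were seen, because it was the promoter in the set covered by an up region. It held no match to either element in these bases or in the 50 after the start.
Oasl2, plus strand, chr5:114896684-114896933: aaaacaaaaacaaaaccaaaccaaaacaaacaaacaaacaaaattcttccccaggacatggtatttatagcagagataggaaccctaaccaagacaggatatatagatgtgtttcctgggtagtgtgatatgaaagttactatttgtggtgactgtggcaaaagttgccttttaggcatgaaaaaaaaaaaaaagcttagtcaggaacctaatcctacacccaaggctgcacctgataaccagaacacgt

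Across the 18 genes there were 27 ISRE matches, of which 22 lay wholly before the start, between -165 and -5, and 15 of those 22 began within 100 bases of it. The other 5 lay after the start, in Ifih1, Ddx58, Eif2ak2 and Ifitm3. For each of these genes other than Ifit1, Ifit3, Isg15, Oas1a and Ifitm3, whose sites are shown in longer sequences, the match with the lowest position is given with 4 flanking bases, turned so that each reads in the direction of the element.
Gbp2, -59 to -50: cagtGAAAGTGAAActaa
Gbp5, -165 to -156: aactGAAATTGAAActac
Gbp7, -53 to -44: aactGAAACTGAAActgc
Gbp3, -45 to -36: aataGAAACTGAAActgt
Irgm1, -30 to -21: tcaaGAAATAGAAAccga
Igtp, -34 to -25: aactGAAACTGAAAgctg
Bst2, -130 to -121: ccagGAAAATGAAActga
Rsad2, -120 to -111: ttctGAAAATGAAAgttg
Oas3, -75 to -66: aggaGAAAACGAAAgtga
Ifitm2, -46 to -37: acagGAAAAGGAAAttgc
Ddx58, 3 to 12: atagGAAATCGAAActgc
Ifih1, 33 to 42: aatcGAAACAGAAAccga
Eif2ak2, 19 to 28: ccggGAAAACGAAAcaga
In Gbp2, Gbp3, Gbp5, Gbp7, Bst2 and Ddx58 the sites shown run on into ct and so match the longer form, and in the other 7 they do not. All 4 guanylate-binding protein genes with an entry held an ISRE, as did both immunity-related GTPase genes and 4 of 5 genes for membrane-acting proteins. None of the 3 genes for nucleotide and nuclease enzymes (Samhd1, Cmpk2, Isg20) and none of Xaf1, Ifi35 and Ifi44 did.

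Promoters of the set were also poorer in CG dinucleotides, with a median of 6 in 300 bases (interquartile range 4 to 10) against 14 (4 to 25) over all genes with an entry. Their median GC content was 53% (48.3 to 54.7%) against 56.7% (48 to 64.7%). The highest counts in the set were 29 CG dinucleotides in Samhd1, 18 in Trim25 and 17 in Eif2ak2, and the lowest was 1 in Ifit3.

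Whether these promoters were open was read from the distance between each annotated start and the closest region. A region lay within 1000 bp of the start in 27 of the 29 genes (93.1%, 95% Wilson interval 78 to 98.1%), against 10529 of 17492 protein-coding genes (60.2%, 59.5 to 60.9%). A region covered the start itself in 26 of the 29 (89.7%) and in 54.7% of all genes. These intervals cover counting error only, and genes are not replicates of a dose. Of the 27 ISRE matches, 25 lay inside an accessible region, as did 11 of 13 GAS matches. Matches were searched near starts only, and most starts lay inside a region, so these counts say little about the elements themselves. The 4 protein-coding genes without a promoter entry were judged by either end of the gene. Usp18, Zbp1 and Gbp4 had a region over an end, and the nearest region to an end of Oas2 was 4241 bp away.

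**Figure D1:**
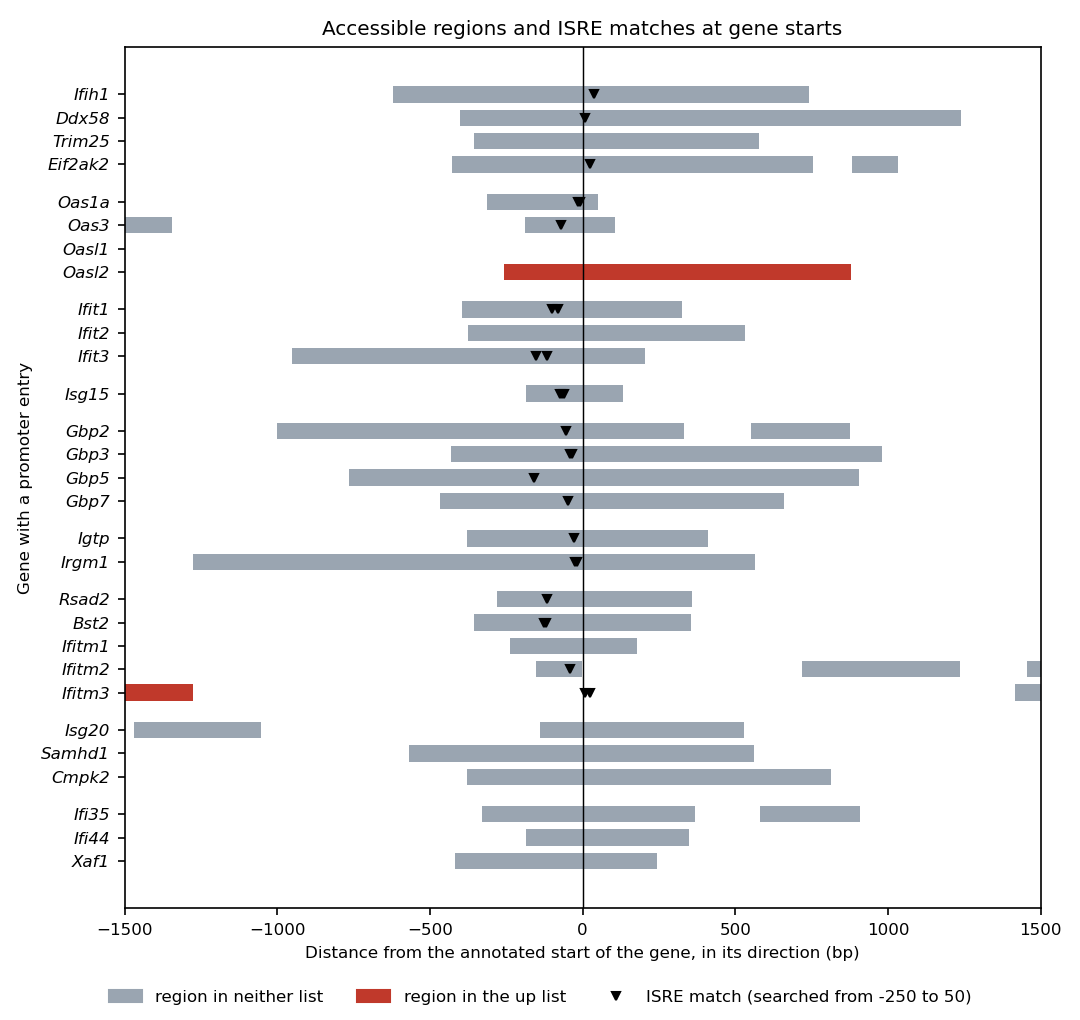
Accessible regions within 1500 bp of the annotated start of the 29 genes with a promoter entry (rows, grouped by role). The horizontal axis is the distance from the start in bp, in the direction of the gene. Bars are regions, red where in the up list and grey where in neither, and triangles are ISRE matches. Of the 29 starts, 26 lie inside a bar, 25 of 27 triangles fall on a bar, and Oasl2 is the gene with a red bar over its start.

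The exceptions were Oasl1 and Ifitm3. Oasl1, an oligoadenylate synthetase-like protein that inhibits Irf7 translation, had its closest region 18725 bp from its start. Ifitm3, a membrane protein that blocks fusion of incoming viruses, had its closest region 1277 bp before its start, just outside the limit. The first 30 bases of Ifitm3 hold 2 ISRE matches, at 3 to 12 and 20 to 29, and these were the 2 matches of the set outside any region.
Ifitm3, minus strand, chr7:141010715-141010744: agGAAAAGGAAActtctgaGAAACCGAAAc
The closest region to the start of Ifitm2 began 1 bp from it and was 152 bp wide. Start regions were widest at Irgm1 (1843 bp), Gbp5 (1672 bp) and Ddx58 (1643 bp) and narrowest among those covering a start at Oas3 (294 bp), Isg15 (316 bp) and Oas1a (367 bp). Their median width was 921 bp (interquartile range 665 to 1192 bp), close to the 986 bp (759 to 1242 bp) of all regions over a start. In 18 of 21 genes with several regions and their own region over the start, that region was the widest of the gene. Regions over a start are wide in general, as the median of all regions away from gene ends was 359 bp. The same count was not made over all genes.

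Accessible regions per gene ranged from 0 to 9 in the 33 protein-coding genes, with a median of 4, against a median of 2 over 21887 protein-coding genes. The latter include genes with 0 regions. Among genes with a region the medians were closer, 4 (interquartile range 2.5 to 5) in the set and 3 (2 to 6) over all. Genes of the set were not longer: their median span was 13710 bp, against 17169 bp. At least 1 region was assigned to 31 of 33 (93.9%) and to 74.9% of all protein-coding genes. Within 1000 bp of an end of their gene lay 42 of the 121 regions (34.7%, 95% Wilson interval 26.8 to 43.5%), against 16.9% of all regions. That background includes genes with up to 121 regions, which leave a smaller share for the ends. The shares were not matched for regions per gene, so how far this accounts for the gap was not tested. Regions of the set also lay closer in, with 86.8% within or up to 10 kb from their gene against 74.6% of all regions.

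**Figure D2:**
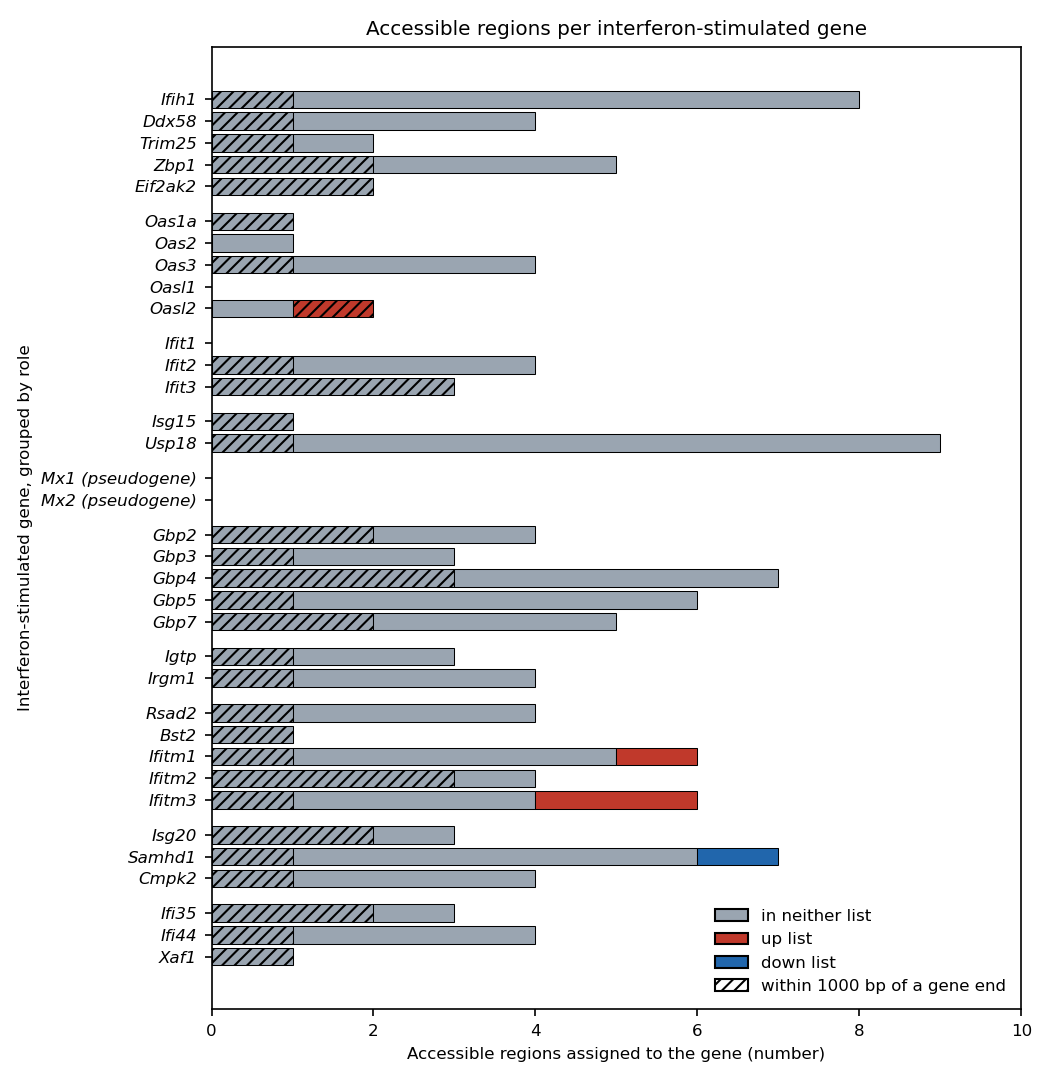
Number of accessible regions assigned to each of the 35 genes (horizontal axis), with genes grouped by role on the vertical axis. Grey regions are in neither list, red in the up list and blue in the down list, and hatched parts lie within 1000 bp of a gene end. Usp18 has the most regions, 9, and the 5 coloured regions lie at Oasl2, Ifitm1, Ifitm3 and Samhd1.

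Among sensors of foreign nucleic acid, Ifih1 (MDA5, a receptor for long double-stranded RNA) had 8 regions, 7 of them within the gene. Ddx58 (RIG-I, a receptor for short RNA with free end phosphates) had 4 regions. Trim25, the ubiquitin ligase that activates RIG-I, had 2, as did Eif2ak2 (PKR, the kinase that halts translation). Zbp1, a sensor of Z-form nucleic acid, had 5, of which 3 lay between 19124 and 22198 bp from the gene. None of these 21 regions was in either list, which at a background of 5.61% is no result about these genes.

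The oligoadenylate synthetases make the second messenger that activates RNase L. Oas3 had 4 regions, Oas1a and Oas2 had 1 each, and the related genes Oasl1 and Oasl2 had 0 and 2. The region of Oas1a lay over its start, whereas that of Oas2, 254 bp wide, lay within the gene and away from its ends. In the IFIT family, whose proteins bind viral RNA and block its translation, Ifit2 had 4 regions and Ifit3 had 3. The count of 0 for Ifit1 came from overlapping annotation: the 721 bp region over its start, chr19:34640495-34641215, also overlapped the end of Ifit1bl2 and was given to that gene. Another, 210 bp wide at chr19:34650303-34650512, lay 294 bp beyond the end of Ifit1 without overlapping it and was given to Ifit1bl1. Isg15 had 1 region, over its start, and Usp18, the protease that removes ISG15 from proteins and dampens receptor signalling, had 9, of which 4 were within the gene and the farthest lay 13303 bp away.

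The guanylate-binding proteins, GTPases that coat pathogen vacuoles, had 25 regions in all: 7 at Gbp4, 6 at Gbp5, 5 at Gbp7, 4 at Gbp2 and 3 at Gbp3. Each of Gbp2, Gbp3, Gbp5 and Gbp7 had a region of 1126 to 1672 bp over its start, and a region of 1163 bp covered an end of Gbp4. Igtp and Irgm1, immunity-related GTPases of the same defence, had 3 and 4. None of these 32 regions was in either list, a number too small to be read against the background of 5.61%. Rsad2 (viperin, which makes a chain-terminating nucleotide) and the adjacent Cmpk2 (a mitochondrial nucleotide kinase) had 4 each, and Bst2 (tetherin, which holds budding virus at the cell surface) had 1. Isg20, an exonuclease, had 3 regions. Samhd1, which depletes the nucleotides that reverse transcription needs, had 7. Ifi35 had 3 regions, Xaf1 (a pro-apoptotic factor) 1 and Ifi44 4, including 1 that lay 83003 bp from the gene.

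Of the 121 regions, 4 were in the authors' up list (3.31%, 95% Wilson interval 1.29 to 8.19%), where 4.21% of all regions were up. In the down list was 1 region (0.826%, 0.146 to 4.53%), where 1.40% of all regions were down. Both backgrounds lie inside the intervals. These cover counting error only, treat neighbouring regions as independent and are not a test of a difference from regions at large. Together 5 regions (4.13%) were listed, against 5.61% of all regions. The other 116 were in neither list, and 29 of the 33 protein-coding genes had no listed region. An up region was assigned to 3 genes and a down region to 1, out of 31 with a region, where 16.1% and 5.39% of all protein-coding genes with a region had one. Away from gene ends, 3 of 79 regions were up (background 4.80%) and 1 was down (background 1.56%). Membership in a list depends on a test and threshold that are not stated in the sources used here, so a region in neither list is not shown to be equal between doses.

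The up region at Oasl2 covered the start, from base -256 to 880 bp after it (chr5:114896678-114897814, 1137 bp). It was the sole listed region among the 42 at gene ends, and 1.32% of all regions at an end of their gene were up. With 3 counts taken as the limit that a count of 0 allows, the 0 down regions among these 42 allow a share of up to 7.14%, and the background was 0.616%. Over all 10529 protein-coding genes with an accessible start, the closest region was up in 0.760% and down in 0.209%. Among the 27 genes of the set with an accessible start, it was up at Oasl2 and in neither list at the other 26. The second region of Oasl2, 241 bp wide and inside the gene, was in neither list.

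The remaining 3 up regions lay in the Ifitm cluster on chromosome 7, whose genes encode small membrane proteins that restrict viral entry. At Ifitm1, 1 of 6 regions was up, a 600 bp region at chr7:140974625-140975224 that lay outside the gene, 4798 bp beyond its end. At Ifitm3, 2 of 6 regions were up. The first measured 980 bp at chr7:140998779-140999758, 9832 bp beyond the end of Ifitm3 and within the long non-coding RNA gene Gm33504. The second measured 406 bp at chr7:141012021-141012426, from 1682 to 1277 bp before the start. None of the 4 regions of Ifitm2 was listed. The 3 up regions fell within 37802 bp, a stretch that held 9 regions in all, and none of them covered a gene's start. Without Ifitm1, Ifitm2 and Ifitm3, 1 of the 105 remaining regions was up (0.952%), where 4.21% of all regions were. Most up calls of the set thus came from this cluster, whose regions are neighbours and share a locus.

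**Figure D3:**
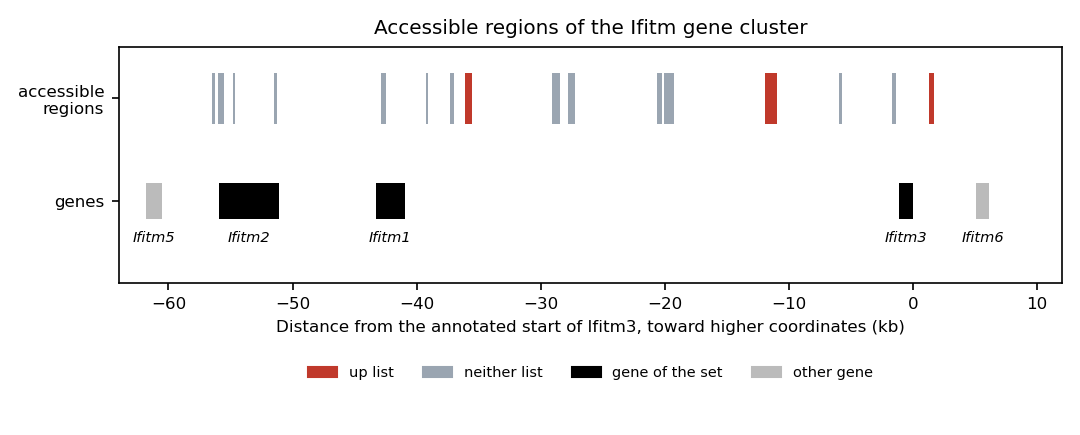
Map of the Ifitm cluster, with accessible regions above and protein-coding genes below. The horizontal axis is the distance in kb from the annotated start of Ifitm3, and Ifitm3 is read toward lower values. Red regions are in the up list, grey regions in neither, black genes belong to the set and grey genes do not. The 3 red regions lie between the genes and not over a start.

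The single down region was at Samhd1, 705 bp wide at chr2:157118815-157119519, inside the gene and 15577 bp after its start. The 1131 bp region over the start of Samhd1 and its other 5 regions were in neither list.

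Genes with more regions have more chances of a listed one, so the set was read beside protein-coding genes with similar numbers of regions. Among genes with 3 to 4 regions, 0 of 14 in the set had an up region, which allows a share of up to 21.4%, where 11.2% of all such genes had one. A down region was likewise found in 0 of the 14, with a background of 2.18%. Among genes with 5 to 9 regions, 2 of 9 had an up region, where 23.6% of all such genes did, and 1 had a down region, where 5.80% did. Among genes with 1 to 2 regions, 1 of 8 had an up region (Oasl2), where 3.70% did, and 0 had a down region, which allows a share of up to 37.5%, where 0.587% did. Counts this small cannot show a difference of moderate size.

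**Figure D4:**
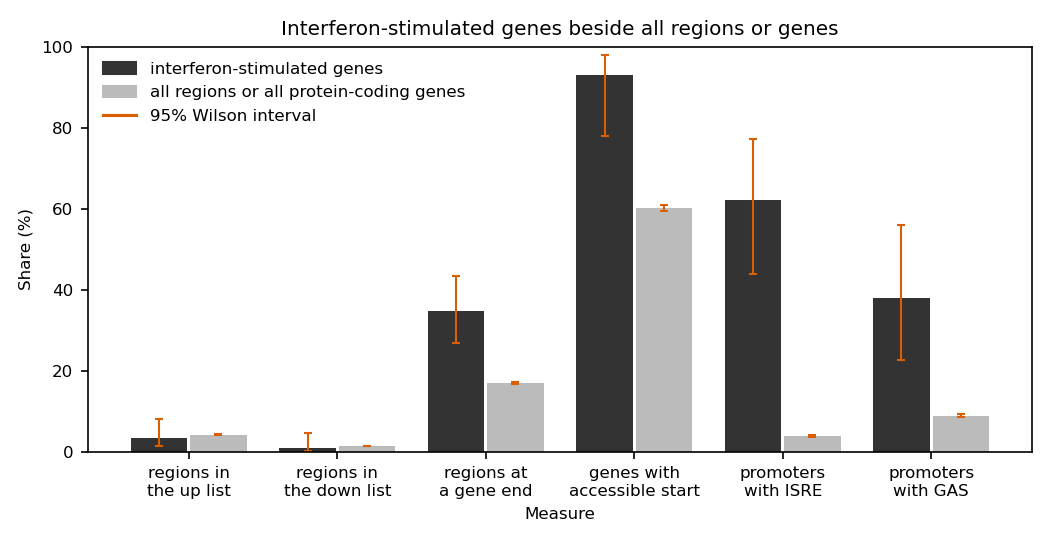
Shares in percent (vertical axis) for 6 measures (horizontal axis), with the interferon-stimulated genes in black and all regions or all protein-coding genes in grey. Orange bars are 95% Wilson intervals. The intervals of the listed shares include those of all regions (3.31% against 4.21% up). Gene ends (34.7% against 16.9%), accessible starts (93.1% against 60.2%) and ISRE (62.1% against 3.94%) are higher in the set than over all regions or genes. The gene-end share is not matched for regions per gene.

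Other genes of the interferon pathway were taken from 2 lists. Of 25 genes for interferons, receptors, sensors and signalling, 25 had a region and 9 had a listed one, where 20.1% of all protein-coding genes with a region did. Several of these genes have many regions, and so more chances of a listed one, among them Irf8 with 42. Over the list, 7 of 294 regions were up (2.38%, where 4.21% of all regions were) and 15 were down (5.1%, where 1.40% were). The down regions included 4 of the 26 regions of Ifngr1, a receptor chain for interferon gamma, and 3 of the 27 of Irf2, a repressor that binds the ISRE. Irf8, Jak2, Tlr3 and Sting1 had 1 down region each. Jak1 had 2 down and 1 up of 40, Ifng 2 down and 4 up of 41, and Tbk1, the kinase that activates Irf3, 2 up of 11. Some of these lay far from the gene they were assigned to, up to 204205 bp at Ifng, 86833 bp at Ifngr1 and 26352 bp at Tbk1. The listed regions of Irf2, Irf8, Jak2 and Sting1 lay within the gene. Of 46 other interferon-stimulated genes (Oas1b is not protein-coding in the gene table and was left out), 43 had a region and 9 a listed one, with 7 of 203 regions up (3.45%) and 4 down (1.97%), and 16 of the 33 with a promoter entry held an ISRE. Accessible starts were also common in both lists, at 22 of the 23 signalling genes with an entry and 28 of these 33, where 27 of 29 starts of the set were. Gbp6 had 3 up regions of 12 and Gbp10 had 1 of 9, in the cluster that also holds Gbp4, where 0 of 7 were listed. Epsti1, Slfn8 and Tor3a had 1 up region each. Down regions, 1 each, were found at Apobec3, Herc6, Psmb9 and Ifit1bl1. The last, 446 bp at chr19:34599196-34599641, covered an annotated start of Ifit1bl1 that lies inside the gene's span and not at its end.

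The identity of the cells was checked at marker genes. All 12 NK genes examined had a region, and the start was accessible in all 10 of those with a promoter entry, among them Ncr1, Klrb1c, Eomes, Tbx21 and Prf1. The start was accessible in 2 of 5 T cell genes (Cd5 and Cd3e), 1 of 3 B cell genes (Ebf1), 1 of 5 myeloid genes (Itgam, which NK cells also express) and 1 of 3 erythroid genes (Klf1). Cd4, Cd8a, Ms4a1, Cd79a, Lyz2, Mpo and Hba-a1 had 0 regions. Of all regions of these genes, 11 of 139 at NK genes were down (7.91%, where 1.40% of all regions were) and 1 was up. At B cell genes 4 of 25 were up (16%, where 4.21% of all regions were), among them the closest region to the start of Ebf1, and at erythroid genes 2 of 6 were up, with 0 down at either. None of the 13 regions of T cell genes (Trac, not protein-coding in the gene table, left out) or the 26 of myeloid genes was listed. The part of other cell types in the listed regions of the set was not tested.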

How the data were processed

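ATAC-seq libraries of the 4 samples, 2 for each IL-15 dose, underlie 3 tables deposited by the authors, which hold positions and widths in bp and 0 columns of values per sample. The submitters' processing notes name BWA, ArchR, MACS2, HOMER 4.11.1 and build mm10, without their roles. Pooling, thresholds, the differential test and its reference dose are not given in the sources used here. Start coordinates of the full list are 0-based and had 1 added, after which each listed region matched 1 region exactly. Genes came from the RefSeq table of GRCm38.p6, the same assembly as mm10. Of annotated starts, 52.3% fell inside a region, against 3.19% and 3.22% after shifts of 100 kb either way. All 35 symbols matched. Each region went to the nearest protein-coding gene, ties going to the nearer end. Where a region overlapped ends of several genes, the gene listed first was taken. Exons and introns were not analysed here. A gene of the pathway lists is not reported here.

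The genes and lists were chosen with earlier results of these data known, so results are counts and shares beside those of all regions or genes, with no test of a dose. All listed regions of the set are named. Promoters shown follow the order of ISRE matches, except those of Oasl2 and Ifitm3, which were picked with their values known, as were the unlisted regions given with positions. Assignment and motif search were tested on simulated data. Python 3.11.15, numpy 2.4.6, pandas 2.3.3 and scipy 1.17.1 were used. Alternatives changed the gene set, assignment, distances, widths and motif.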

Additional observations from a re-analysis of the deposited data

How the results depend on the processing

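No paired analysis was possible because there are no per-sample values in the tables used. For the same reason no replicate could be left out. Of 41 alternatives to 8 results, 34 stayed within the 95% Wilson interval of the reported share or within 1.5 times the reported count, and 7 did not. With few listed regions these intervals are wide: the up share of 3.31% was 1.43% among regions overlapping a gene of the set and the down share of 0.826% was also 1.43% there, both inside. Genes with an up region fell in number from 3 to 1, and the median number of regions per gene from 4 to 2, when regions had to overlap the gene. The 3 up regions of the Ifitm cluster lie outside the span of any gene of the set, as do 52 of the 121 regions. The up share was 0.952% without Ifitm1, Ifitm2 and Ifitm3, a choice made after seeing the data, and 1.74% without Ifitm3 alone. The share of regions at gene ends was 24% within 100 bp (11.4% of all regions) and 52.1% within 3000 bp (25.6% of all regions). Promoters with the longer ISRE numbered 11, as did those with GAS. Matching listed regions by an overlap of 1 bp could not differ from exact matching, since regions do not overlap.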

Other observations

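The Mx genes encode dynamin-like GTPases that trap viral nucleocapsids, and C57BL/6 mice carry defective copies. Mx1 had 4 regions overlapping its span, all close to its higher-coordinate end, the widest of 685 bp at chr16:97462669-97463353. Mx2 had 1, of 1723 bp at chr16:97534701-97536423, over its lower-coordinate end. Under the nearest-gene rule these were given to the neighbours Fam3b and Tmprss2, and none was in either list.

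Outside the set, 671 protein-coding genes held an ISRE in the promoter, and their starts were accessible in 56.9% (382 genes), against 60.3% of the 16792 genes without the element. Among the 382 accessible starts, the closest region was up in 6 (1.57%) and down in 3 (0.785%), against 0.721% and 0.188% of the 10120 accessible starts without the element, a difference that was not tested. The up regions lay at Ebf1, Gm46650, Itga2b, Pilrb2, Slc25a22 and Spp1, and the down regions at Esr1, Ifit1bl1 and Plxnc1, named after their values were seen.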
